A study of Solanum tuberosum with 6 samples.

Results

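AOX, APX, LOC102600329 and LOC102599054 are 4 of the 32768 genes in the count table of potato leaf RNA. They were picked by name for their part in redox chemistry, and were chosen on the difference between the bulks in earlier results of these data. That difference is therefore described for them below and not tested. AOX encodes an alternative oxidase and APX an ascorbate peroxidase. LOC102600329 is annotated as non-symbiotic haemoglobin 2 and LOC102599054 as a glutathione S-transferase (GST).

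The alternative oxidase is an enzyme of the inner mitochondrial membrane that passes electrons from ubiquinol straight to oxygen, so that respiration can go on without pumping protons at the later complexes. Ascorbate peroxidase reduces hydrogen peroxide with ascorbate, which is then regenerated in the ascorbate-glutathione cycle by monodehydroascorbate reductase, dehydroascorbate reductase and glutathione reductase. Non-symbiotic haemoglobins of plants bind oxygen and convert nitric oxide, and GSTs couple glutathione to reactive compounds and take part in detoxification and the handling of peroxides.

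The RNA came from leaves of the diploid population 15-1, the F1 of a cross between a Solanum hybrid used as seed parent and the wild species S. chacoense. Plants were grown in pots in a greenhouse, were untreated, and were sampled in full flower. Bulk C had a low glycoalkaloid content and a high phytotoxic potential, which is the capacity of the leaf extract to inhibit other plants, and bulk D had a low glycoalkaloid content and a low phytotoxic potential. Each bulk pooled equal amounts of leaf from 3 F1 individuals, so no value here belongs to a single genotype, and any difference between the bulks cannot be told apart from other differences between the pooled plants. Counts of reads per gene were used for C1, C2 and C3, the 3 libraries of C, and for D1 and D2 of D, and a further library of D is not analysed here. A bulk leaf library cannot separate fewer cells of a type from less RNA per cell. The leaf genes PSBR and RBCS-C, of photosystem II and of Rubisco, were abundant in all 5 libraries (3475 to 4782 CPM and 6857 to 8568 CPM), and no symbol of the fixed list of tuber storage genes was found in the table.

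The libraries held 22070364 to 22769554 counts. Levels are given as CPM, the counts of a gene scaled to library size, with edgeR's TMM factors correcting the sizes for differences in composition. The log2 fold change (log2 FC) sets bulk C over bulk D and comes from edgeR's quasi-likelihood fit. For genes other than the 4 it is tested with Benjamini-Hochberg adjustment over the 19630 genes with enough reads. Of these, 34.4% were called at an adjusted p-value under 0.05, 15.8% higher and 18.6% lower in C, and in 57.1% the libraries of the bulks did not overlap. The number called higher, 3111, was 2029 without C3 and 2072 without D2, and the number called lower, 3649, was 2394 without D2. Of the called genes 46.0% were higher in C, and 29.4% when total counts replaced TMM. Libraries of one bulk differed by 5.84 to 11.8 times the counting noise and libraries of different bulks by 49.4 to 63.6 times, so none was counted as a duplicate. The bulk of C3 depends on how the names over the columns were read, and C3 differed from C1 and C2 by 8.26 and 5.84 times the counting noise and from D1 and D2 by 56.7 and 63.6 times. The labels do not say how the replicate libraries arose. Errors therefore measure the spread between these libraries, which may be technical, and an exact two-sided test of a single gene in 3 against 2 libraries cannot give a p-value under 0.1. Every one of the 4 genes had enough reads to be fitted. Their levels can be compared between libraries but not with each other, because transcript lengths were not given.

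AOX lies between positions 32060 and 33832 of an unplaced scaffold of the SolTub_3.0 assembly and spans 1773 bp. It was read 2742, 2792 and 2848 times in C1, C2 and C3, and 4187 and 3689 times in D1 and D2. On the scaled libraries the level of AOX was 129, 122 and 129 CPM in C, and 170 and 166 CPM in D. Both libraries of D were above all 3 of C, and the lowest of D was 1.28 times the highest of C. The mean level was 127 ± 4.10 CPM in C (SD, n = 3) and 168 ± 3.14 CPM in D (SD, n = 2). This is a log2 FC of -0.41 (SE 0.08), or 1.32-fold higher in D. Of all tested genes, 63.1% had a smaller absolute log2 FC than AOX.

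APX had the most reads of the 4, on average more than 99.4% of the tested genes. It was read 18812, 18484 and 19181 times in C and 23363 and 22586 times in D. The level of APX was 888, 809 and 870 CPM in C1, C2 and C3, and 950 and 1016 CPM in D1 and D2. Both libraries of D were again above all 3 of C, but the gap was narrow, the lowest of D being 1.07 times the highest of C. The mean was 855 ± 41.3 CPM in C (SD, n = 3) and 983 ± 46.1 CPM in D (SD, n = 2), a log2 FC of -0.20 (SE 0.09) or 1.15-fold higher in D. Only 36.9% of the tested genes had a smaller absolute log2 FC than APX. The libraries of a bulk varied in APX by a coefficient of variation of 4.83% in C and 4.69% in D, whereas counting error alone gives 0.729% and 0.66%. APX has no entry in the annotation table used here and is given without a position.

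LOC102600329, the haemoglobin gene, is the one of the 4 that was higher in C. It lies on the plus strand between positions 110722 and 112829 of an unplaced scaffold and spans 2108 bp. It was read 1507, 1554 and 1561 times in C1, C2 and C3, but 228 and 234 times in D1 and D2. The level of LOC102600329 was 71.1, 68.0 and 70.8 CPM in C, and 9.28 and 10.5 CPM in D. The lowest library of C was 6.46 times the highest of D. With means of 69.97 ± 1.71 CPM in C (SD, n = 3) and 9.90 ± 0.88 CPM in D (SD, n = 2), the log2 FC of LOC102600329 was 2.82 (SE 0.10), or 7.08-fold higher in C. Among all tested genes 55 had a higher log2 FC. The gene was not silent in D, since both libraries stood far above the floor of 3 counts, which is 0.122 to 0.142 CPM.

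LOC102599054, the GST gene, lies between positions 66656 and 67935 of another unplaced scaffold and spans 1280 bp. It was read 434, 465 and 505 times in C1, C2 and C3, and 1335 and 1159 times in D1 and D2. The level of LOC102599054 was 20.5, 20.4 and 22.9 CPM in C, and 54.3 and 52.1 CPM in D. The lowest library of D was 2.28 times the highest of C. The mean was 21.2 ± 1.44 CPM in C (SD, n = 3) and 53.2 ± 1.55 CPM in D (SD, n = 2), a log2 FC of -1.32 (SE 0.09) or 2.50-fold higher in D. In absolute size this was above 93.2% of the tested genes.

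**Figure D1:**
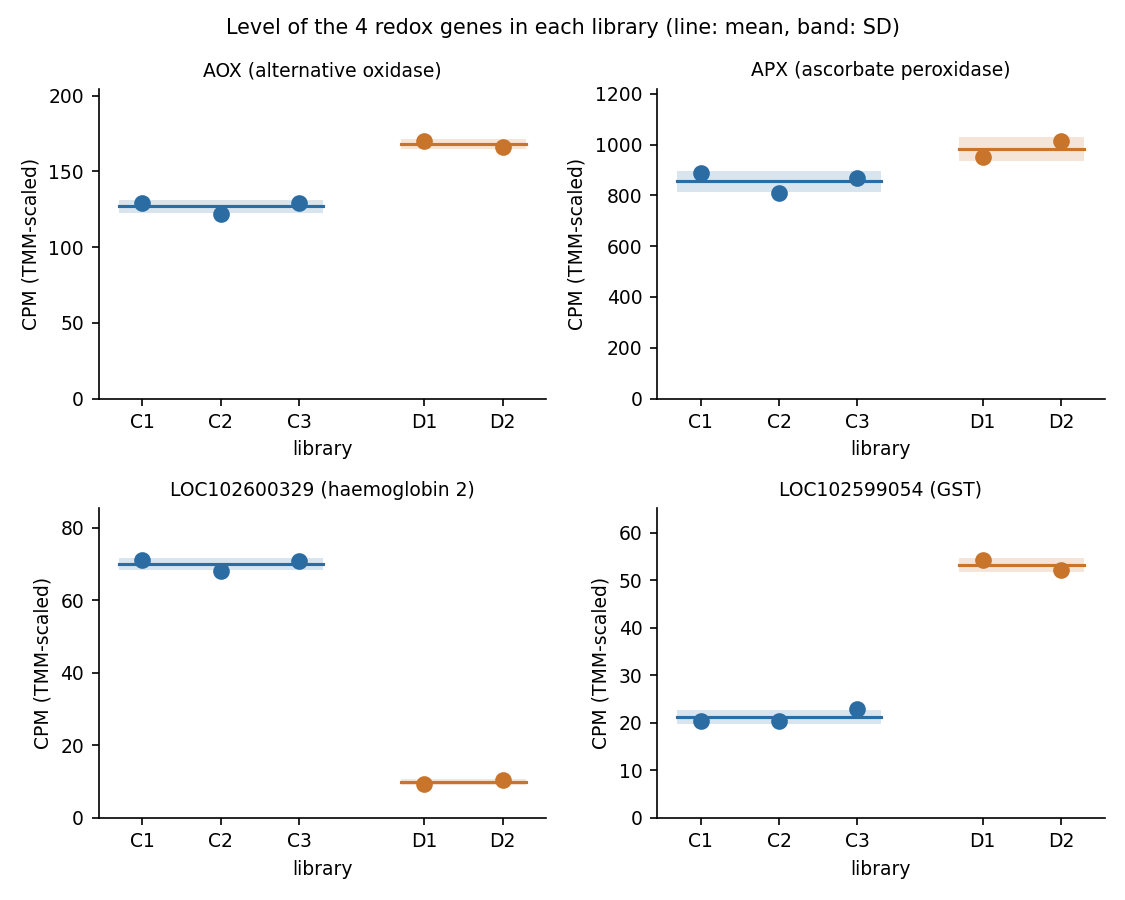
Level of AOX, APX, LOC102600329 and LOC102599054 in CPM on TMM-scaled library sizes (vertical axes, starting at 0) in libraries C1, C2 and C3 (blue) and D1 and D2 (orange), each point 1 library, with the mean (line) and SD (band) of each bulk. LOC102600329 stands near 70 CPM in C and near 10 CPM in D, the other genes are higher in D, and APX has the smallest gap between the bulks.

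The bulks did not overlap in any of the 4 genes, which held for 57.1% of all tested genes, and the direction was chosen with the genes. On the log2 scale the order from the highest to the lowest log2 FC was LOC102600329, APX, AOX and LOC102599054. APX (-0.20, SE 0.09) and AOX (-0.41, SE 0.08) are neighbours in that order and lie nearest to each other. The difference between APX and AOX was not tested. The haemoglobin and the GST stand well apart from them on either side. Within a bulk the coefficient of variation was lowest for AOX in D (1.87%) and highest for LOC102600329 in D (8.91%), where counting error alone gives 6.58%.

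The scaling of the libraries bears on the small differences. With total counts in place of TMM, the mean of APX in C was 831 CPM, that in D was 1025 CPM, and its log2 FC was -0.30, while that of AOX was -0.51. Without C3 the log2 FC was -0.42 for AOX, -0.21 for APX, 2.82 for LOC102600329 and -1.38 for LOC102599054. The bulks did not overlap in any of the 4 genes under TMM, median-of-ratios or total-count scaling. Ratios of reads inside a library need no scaling at all. For every 100 reads of APX, AOX had 14.6, 15.1 and 14.8 reads in C1, C2 and C3, and 17.9 and 16.3 in D1 and D2. The mean ratio was 14.8 ± 0.26 in C (SD, n = 3) and 17.1 ± 1.12 in D (SD, n = 2), so AOX was higher in D also when measured against APX. LOC102600329 had 8.01, 8.41 and 8.14 reads per 100 of APX in C and 0.976 and 1.04 in D. LOC102599054 had 2.31, 2.52 and 2.63 reads per 100 of APX in C and 5.71 and 5.13 in D. The haemoglobin and the GST were chosen with differences in opposite directions. The wide split of their ratio follows from that choice and adds nothing to the single values. There were 3.47, 3.34 and 3.09 haemoglobin reads per GST read in C1, C2 and C3 and 0.171 and 0.202 in D1 and D2.

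**Figure D2:**
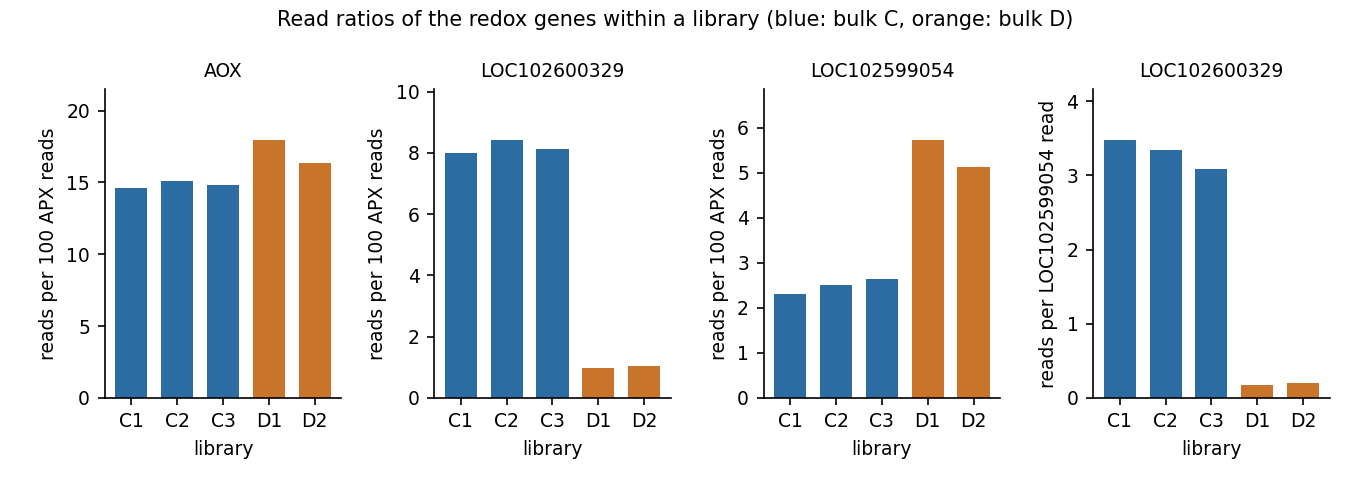
Reads of AOX, LOC102600329 and LOC102599054 per 100 reads of APX, and reads of LOC102600329 per read of LOC102599054 (vertical axes, starting at 0), in each library of bulk C (blue) and bulk D (orange). The haemoglobin ratios are high in all 3 libraries of C and low in both of D, the GST ratio runs the other way, and the AOX ratio differs least.

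Other genes of the same processes were taken from their symbols. The symbols of redox enzymes fixed for this comparison were held by 7 further genes, of which 1 was called higher in C, 3 lower and 3 neither. Over all tested genes 15.8% were called higher and 18.6% lower, and 7 genes are too few to set against these shares. The median log2 FC of the 7 was -0.30 against -0.01 over all tested genes. Next to APX in the ascorbate-glutathione cycle, DHAR, a dehydroascorbate reductase, fell in C from 116 ± 8.62 CPM in D (SD, n = 2) to 79.1 ± 4.73 CPM (SD, n = 3), with a log2 FC of -0.55 (SE 0.09, edgeR adjusted p = 0.000488). DHAR2, named as a second gene of that enzyme, had a log2 FC of 0.25 (SE 0.09, edgeR adjusted p = 0.0441), and this call was lost when any 1 of the 5 libraries was left out (adjusted p 0.0509 to 0.274). PPO, a polyphenol oxidase that oxidizes phenolics to quinones, fell in C from 10.9 ± 0.05 to 5.0 ± 1.02 CPM (log2 FC -1.12, SE 0.17, edgeR adjusted p = 0.000388). GRX2, by its symbol a glutaredoxin, which reduces disulfides with glutathione, fell in C with a log2 FC of -0.51 (SE 0.11, edgeR adjusted p = 0.00439), a call lost without D2 (adjusted p = 0.0562). GRX1 did not pass the test (log2 FC 0.02, SE 0.12, edgeR adjusted p = 0.911). UCP, a mitochondrial uncoupling protein that like AOX lets respiration run without ATP synthesis, had a log2 FC of -0.30 (SE 0.11, edgeR adjusted p = 0.0597). CAT1, a catalase and the gene with the most reads of these, at 11202 ± 636 CPM in C and 9441 ± 352 CPM in D, had a log2 FC of 0.25 (SE 0.10, edgeR adjusted p = 0.0676), while DESeq2 and limma's voom called it higher (adjusted p = 0.0171 and 0.0463). By edgeR CAT1 was also not called when any library of C was left out.

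A wider set was read from the study's lists of genes under redox terms of the Gene Ontology. These lists hold only genes that the study called on the same libraries, so the calls are not independent evidence of either a difference or its direction. The lists, as far as they could be read, give 79 genes besides the 4, with 2 names missing from the one for peroxidase activity. Of these genes 74 were tested, 21 called higher and 50 lower in C, and the median log2 FC was -0.70. For AOX the list of alternative oxidase activity gives 1 other gene, LOC102605095, which was read 566, 785 and 717 times in C and 527 and 378 times in D. Its log2 FC of 0.70 (SE 0.13, edgeR adjusted p = 0.00196) was opposite in sign to that of AOX. For LOC102600329 the list of oxygen binding gives 1 other gene, LOC102577514, annotated as a haemoglobin, which was read 5, 7 and 4 times in C and 34 times in each library of D. Its log2 FC of -2.56 (SE 0.42, edgeR adjusted p = 0.000616) was opposite in sign to that of LOC102600329, and it was named after its values had been seen. Each of these 2 terms covers 4 annotated genes, of which the study listed 2, 1 in each direction. The opposite directions were thus fixed by the lists, and the genes of the terms that are not listed were not examined.

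Beside APX, the list of L-ascorbate peroxidase activity gives 5 genes, of which 4 were tested, 3 called higher in C and 1 lower. LOC102595667 had the largest log2 FC upward (0.60, SE 0.10, edgeR adjusted p = 0.000673) and LOC102599197 the one downward (-0.76, SE 0.13, edgeR adjusted p = 0.000949), the latter read 197, 195 and 190 times in C and 329 and 367 times in D. All 3 genes listed as monodehydroascorbate reductases were called higher in C (median log2 FC 0.39), as were both listed glutathione reductases. The 3 terms cover 8, 4 and 3 annotated genes. The study listed only those it had called, so these directions were set beforehand. Several of these calls rest on single libraries. Of the 3 peroxidases 1 was called higher without C2 and 2 without each other library, of the monodehydroascorbate reductases 1 was called without C2, C3, D1 or D2, and of the glutathione reductases 1 without C3 or D1. Of the latter, LOC102581092 was read 4130, 4595 and 4465 times in C and 3465 and 3031 times in D (log2 FC 0.53, SE 0.08, edgeR adjusted p = 0.000402). APX itself lay on the other side of 0 from the listed reductases with its log2 FC of -0.20. That contrast was set by the lists and by the choice of APX. Of 7 tested genes under superoxide dismutase activity, the enzymes that make hydrogen peroxide from superoxide, 3 were called higher and 4 lower. The 2 extremes were LOC102605869, a chloroplast Cu-Zn enzyme whose reads were 1734, 2204 and 2341 in C but 627 and 527 in D (log2 FC 1.95, SE 0.12, edgeR adjusted p = 3.08e-07), and LOC102588174, a chloroplast Fe enzyme whose reads were 837, 916 and 805 in C but 5418 and 5276 in D (log2 FC -2.56, SE 0.08, edgeR adjusted p = 2.04e-09). Under peroxidase activity 39 genes could be read from a shortened copy of the list, in which 2 further names are missing, and of the 35 tested 9 were called higher and 23 lower. LOC102583921, annotated as a suberization-associated anionic peroxidase, was read 12, 8 and 7 times in C and 523 and 581 times in D (log2 FC -5.84, SE 0.21, edgeR adjusted p = 4.15e-09). It was named as the largest decrease among listed genes with a mean of at least 100 counts. It met that mean only through bulk D, and in C it stood near the floor of 3 counts.

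The list of glutathione transferase activity holds 26 genes besides LOC102599054, all tested, of which 3 were called higher and 23 lower in C, the median log2 FC being -0.75. The term covers 42 annotated genes, and the study listed only the 27 it had called, 3 higher and 24 lower. These counts were therefore largely set beforehand and cannot be held against the 15.8% and 18.6% of all tested genes. With 1 library left out, 17 to 22 were called lower. The value of LOC102599054, -1.32, was lower than that of all but 2 of them, LOC102598723 and LOC102583433, which had at most 19 reads in any library. The genes called higher were LOC102602918 (log2 FC 0.85, SE 0.16, edgeR adjusted p = 0.00169), LOC102582540 (0.50, SE 0.10, edgeR adjusted p = 0.00236) and DHAR2, which this term also covers. GST genes often occur as near-identical copies, between which the counting may have split or lost reads, so single values in this family are uncertain.

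**Figure D3:**
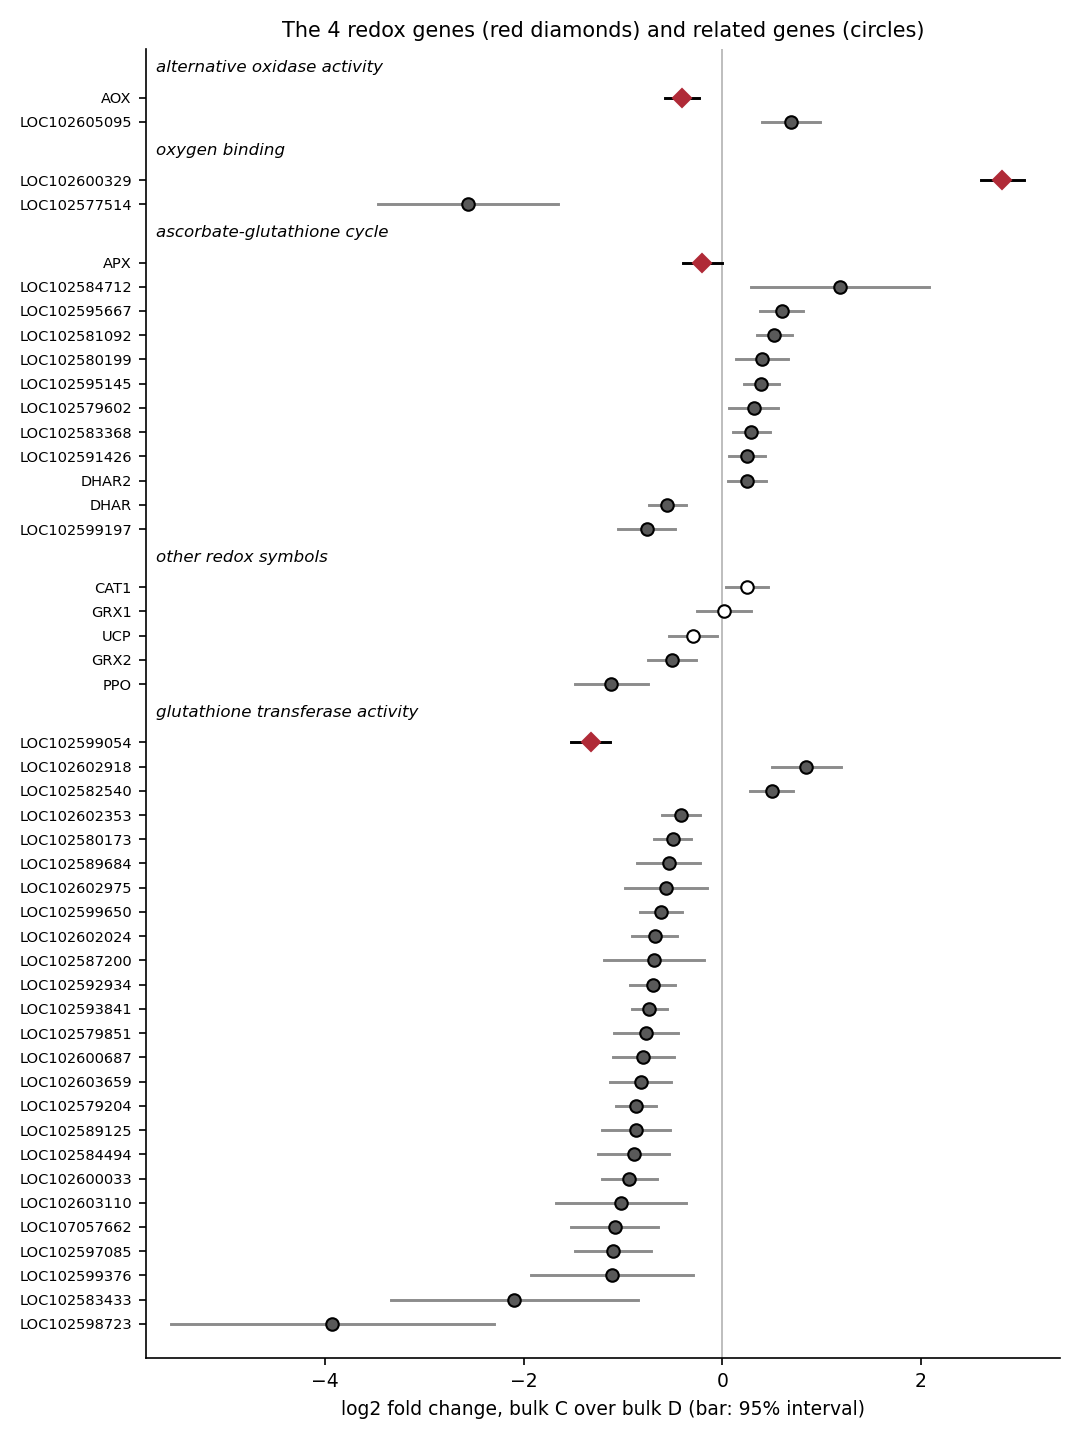
Log2 FC of bulk C over bulk D (horizontal axis, bars are 95% intervals of the fit) for AOX, APX, LOC102600329 and LOC102599054 (red diamonds, not tested) and for tested genes of the redox symbols and of the study's lists (circles, filled where the edgeR adjusted p-value is under 0.05). AOX and LOC102600329 each lie on the other side of 0 from the 1 listed relative. LOC102599054 lies among genes of the GST list, of which 23 of 26 were lower in C. DHAR and DHAR2 of that list are drawn with the ascorbate-glutathione cycle. The study's lists hold only genes that it called on these libraries, so these directions were set beforehand.

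The genes beside the 4 on the assembly were chosen by position and not by their reads. Up to 5 on either side were taken where the scaffold allowed, and none for APX, which has no position. Over all tested genes 34.4% were called, 15.8% higher and 18.6% lower, and the few neighbours of each gene cannot be told from these shares. Of 4 tested neighbours of AOX, none was called higher and 1 lower, and the nearest on either side, LOC102588460 and LOC102589114, did not pass the test (log2 FC 0.17, SE 0.10, edgeR adjusted p = 0.224, and -0.05, SE 0.20, adjusted p = 0.886). The 1 call, LOC102589439 (log2 FC -0.35, SE 0.09, edgeR adjusted p = 0.0118), was lost without C3 (adjusted p = 0.0559) and without D2 (adjusted p = 0.103). Of 7 tested neighbours of LOC102600329, 2 were called higher and 2 lower, with log2 FCs between -1.33 and 0.78. The gene just after it, LOC102600663, rose in C, with reads of 175, 234 and 213 in C against 140 and 117 in D (log2 FC 0.78, SE 0.15, edgeR adjusted p = 0.00214). The gene just before it, LOC102600009, did not pass the test (log2 FC 0.20, SE 0.14, edgeR adjusted p = 0.305), but did without D2 (log2 FC 0.45, adjusted p = 0.0337). None of the 7 came near the log2 FC of 2.82 of the haemoglobin gene. The other calls beside it were less stable. LOC102599461 (0.41, SE 0.13, edgeR adjusted p = 0.0338) was lost without C2, C3, D1 or D2 (adjusted p = 0.0667, 0.14, 0.067 and 0.131), LOC102601239 (-0.35, SE 0.08, edgeR adjusted p = 0.00728) without D2 (adjusted p = 0.0895), and LOC102602135 (-1.33, SE 0.33, edgeR adjusted p = 0.00916) without D1 (adjusted p = 0.106).

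Of 4 tested neighbours of LOC102599054, none was called higher and 3 lower. Its whole scaffold was examined for that reason, a choice made after the data were seen. The scaffold holds 21 genes, and of the 20 besides LOC102599054, 8 were tested and 6 had no read in any library. Of the 8, 1 was called higher in C and 5 lower, with a median log2 FC of -0.87. The 5 include the 3 neighbours that prompted the choice. These counts therefore cannot be held against the 15.8% and 18.6% called over all tested genes. All 5 called lower are on the study's list of glutathione transferase activity. LOC102597085 was read 73, 81 and 98 times in C and 181 and 201 times in D (log2 FC -1.10, SE 0.17, edgeR adjusted p = 0.000549). LOC102600033 was read 161, 203 and 164 times in C and 371 and 343 times in D (log2 FC -0.93, SE 0.13, edgeR adjusted p = 0.000176). LOC102600687, read 223, 320 and 226 times in C and 485 and 457 times in D, had a log2 FC of -0.79 (SE 0.14, edgeR adjusted p = 0.00109). In these 3 genes, as in LOC102599054, both libraries of D were above all 3 of C. The bulks did not overlap in 57.1% of all tested genes. The list holds only genes already called on these libraries, so this separation was largely set beforehand.

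The remaining genes of the scaffold had few reads or did not share the direction. LOC102598723 was read 2, 0 and 1 times in C and 17 and 19 times in D (log2 FC -3.93, SE 0.74, edgeR adjusted p = 0.00142). LOC102599376, directly before LOC102599054, was read 20, 18 and 18 times in C and 29 and 56 times in D (log2 FC -1.11, SE 0.37, edgeR adjusted p = 0.0375), a call lost without C2, C3 or D2 (adjusted p = 0.0923, 0.106 and 0.528). LOC102600356, directly after it, did not pass the test (log2 FC -0.81, SE 0.38, edgeR adjusted p = 0.119). The first genes of the scaffold in annotation order were LOC102596326, which did not pass the test (log2 FC -0.01, SE 0.14, edgeR adjusted p = 0.964), and LOC102596759, which rose in C, with reads of 721, 724 and 692 in C against 534 and 501 in D (log2 FC 0.55, SE 0.09, edgeR adjusted p = 0.000926). LOC102598057, also annotated as a probable GST, was read 0, 2 and 0 times in C and 5 and 2 times in D and was not tested. The 6 genes of the scaffold on the list of glutathione transferase activity, LOC102599054 included, had log2 FCs from -3.93 to -0.79, a shared direction that is partly fixed because the list holds only genes already called on these libraries. Whether reads shared between copies on the scaffold contribute to this was not tested.

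**Figure D4:**
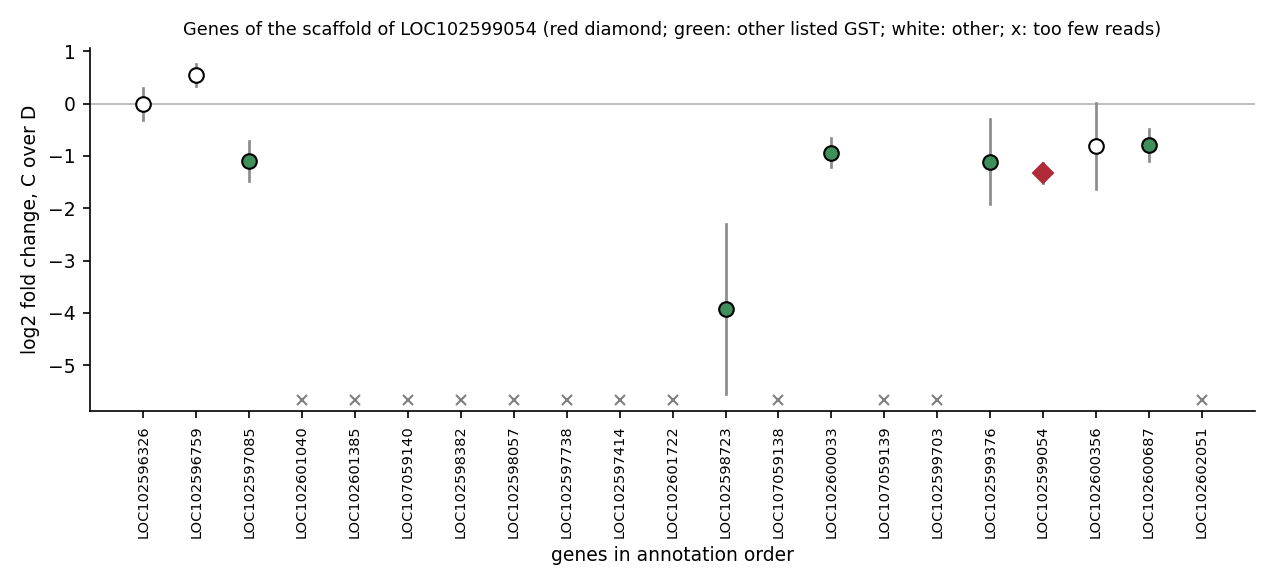
Log2 FC of bulk C over bulk D (vertical axis, bars are 95% intervals of the fit) for the 21 genes of the scaffold that carries LOC102599054, in annotation order (horizontal axis). LOC102599054 (red diamond) and 5 other genes listed as GST (green) lie below 0, genes not on that list are white, and the crosses at the foot mark genes with too few reads to be fitted.

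The genes whose level ran most like that of each of the 4 were sought among 13433 tested genes with a mean of at least 100 counts, by the root mean square difference between log2 levels centred on their mean over the 5 libraries. This likeness rests on 5 libraries and is a description. Closest to AOX was LSD1, in Arabidopsis a zinc-finger regulator of cell death, with a difference of 0.02 and 1198, 1234 and 1224 reads in C against 1789 and 1613 in D, followed by LOC102598279 and LOC102578750. Closest to APX was LOC102601057 with a difference of 0.01 and 5811, 5614 and 5919 reads in C against 7258 and 7050 in D, followed by LOC102606209 and LOC102601481. Closest to LOC102600329 was LOC102579167, annotated as an aspartic proteinase, with a difference of 0.06 and 1609, 1611 and 1483 reads in C against 239 and 234 in D. LOC102578932, annotated as an endoglucanase, and LOC102589539, annotated as a mitochondrial acyl-CoA dehydrogenase, followed it. Closest to LOC102599054 was LOC102605534 with a difference of 0.03 and 87, 96 and 103 reads in C against 271 and 225 in D, followed by LOC102596835 and LOC102596454. None of these 12 genes carries a redox symbol, is on one of the redox lists or lies beside AOX, LOC102600329 or LOC102599054 on the assembly. Whether any lies beside APX is not known, because APX has no position here.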

How the data were processed

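The authors prepared strand-marking libraries from leaf messenger RNA, sequenced 100-bp paired-end reads, aligned them to SolTub_3.0 with TopHat2 2.0.9 and Bowtie2 2.1.0 (versions from the submitters' processing notes), and deposited raw counts of reads per gene made with HTSeq. The strand setting of the counting is not given in the sources used here. The header names 7 libraries over 1 field of gene names and 6 of counts. Each name was taken to belong to the counts 1 field to its right, which rests on the study's supplementary results, and 1 count column was not used. C3 is the library whose bulk depends on this.

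All 163840 values were checked to be whole. Genes passing edgeR's filterByExpr (19630 of 32768) were fitted in R 4.3.3 with edgeR 4.0.16 (TMM, quasi-likelihood test, Benjamini-Hochberg, threshold 0.05), and DESeq2 1.42.0 and limma 3.58.1 (voom) were alternatives. The test was checked on simulated counts. Symbols were matched to RefSeq's annotation for 32736 genes. Intervals and floors cover counting error or the spread between libraries only. The 4 genes and the lists were chosen with earlier results of these data known. The genes named were the 4, the tested redox symbols, the nearest neighbours, the 3 closest profiles, and up to 4 called genes in each direction of each redox list with a mean of at least 100 counts, of which the text gives the leading ones. The redox lists stand in for protein families, which were not built here, and further genes of the scaffold and neighbours were added after the data were seen. Other tools, filters, scalings, the replicate number as a block, the header as it stands and each library left out were alternatives.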

Additional observations from a re-analysis of the deposited data

How the results depend on the processing

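Across 13 alternatives the 4 genes kept their direction, with a log2 FC of -0.51 to -0.30 for AOX, -0.30 to -0.15 for APX, 1.21 to 2.92 for LOC102600329 and -1.43 to -1.08 for LOC102599054. With total counts and no TMM scaling, an alternative added after the data were seen, the values were -0.51, -0.30, 2.72 and -1.43. The median of all genes then moved to -0.11, and 1966 genes were called higher and 4712 lower, or 29.4% higher against 46.0%. With the header names read where they stand, which puts C3 in bulk D, the log2 FC was -0.30 for AOX, 1.21 for LOC102600329 and -1.08 for LOC102599054. By edgeR 0 genes were then called in either direction, 0 of the redox lists among them, with 1301 genes at an unadjusted p under 0.05, while voom called 0 and DESeq2 1. With each library left out in turn, the log2 FC of LOC102600329 ran from 2.73 to 2.92, and the genes called from 2029 to 3038 higher and from 2394 to 3811 lower. Where a library of D was left out, the other was assumed to vary like those of C.

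The replicate numbers did not pair the libraries, since the deviations of same-numbered libraries had r = -0.54 and -0.47. The 2 libraries of D deviate from their mean by opposite amounts, so these are not separate checks. The difference of C1 from C2 ran against that of D1 from D2 (r = -0.55). The libraries thus shared variation across the bulks, C1 with D2 and C2 with D1, and its source was not tested. With the number as a replicate block, 1396 genes were called higher and 2052 lower, and 10 of the redox lists higher in place of 21. Over the other named genes, 733 values kept their direction and side of the threshold, 123 lost the call and 11 gained it. Another 16, of 6 genes, changed sign while not called in either fit, and no called value changed sign. With the header as it stands edgeR called 0 genes, so every call of a named gene was lost, and the 123 include those losses.

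Protein families, a stricter identity limit for them and promoter motifs were not run, because protein and promoter sequences were not used here. Depth limits LOC102598723 and LOC102577514, each with under 10 reads in every library of C.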
